A study of Mus musculus with 6 samples.

Results

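The H2 genes are the major histocompatibility complex (MHC) of the mouse, a cluster on chromosome 17 whose products hold peptides at the cell surface for T cells to read. A class I molecule is a heavy chain, encoded by an H2-K, H2-D, H2-Q, H2-T or H2-M gene, that usually pairs with beta-2 microglobulin. It displays peptides from inside the cell on nearly every cell type, and interferons raise its level. Class II molecules are pairs of an alpha and a beta chain, encoded by the H2-A and H2-E genes. They display engulfed material mainly on macrophages, dendritic cells and B cells, while the H2-DM and H2-O products control which peptides they take up. The members described here were all genes with a transcript cluster, the array's unit of probes, that the platform annotation gives 1 symbol beginning with "H2-". There were 34 such genes among 22180 genes measured, 21 of class I, 10 of class II and 3 of neither class. Class was assigned from the letters after the prefix, and symbols outside these patterns were counted as neither. Where a member had several clusters, the cluster with the highest mean over the 6 arrays stood for it.

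The tissue was the whole pancreas of male mice of 6 months, with 3 Pdx1Cre;Sirt1ex4F/F mice and 3 Pdx1Cre control mice, 1 array for each pancreas. All 6 mice carried the Pdx1Cre transgene, in which the pancreatic Pdx1 (Ipf1) promoter drives Cre recombinase. The Pdx1Cre;Sirt1ex4F/F mice, called Sirt1-deficient, also carried 2 floxed alleles of Sirt1, an NAD-dependent deacetylase, and the Pdx1Cre mice were wild type for Sirt1. Cre acts in the endocrine and exocrine cells of the pancreas, and immune and vascular cells of the same tissue lie outside this lineage. The study describes the expression of this Cre as more mosaic, above all in the exocrine part. The transgene came from a B6.FVB stock and the floxed allele from a B6;129 stock. C57BL/6 mice carry H2 haplotype b and FVB mice haplotype q, and the haplotype of each mouse is not given in the sources used here. Haplotypes differ in sequence, and in the number of H2-D, H2-L, H2-Q and H2-T genes. Whether haplotype takes part in any difference below was not tested.

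The arrays resembled each other closely, with pairwise correlations of 0.974 to 0.984 and array medians of 4.48 to 4.57 on the log2 scale. The Sirt1 cluster read 5.59, 5.69 and 5.83 in the Sirt1-deficient pancreata, against 5.84, 5.78 and 5.80 in the Pdx1Cre pancreata, so the groups overlapped. A cluster pools probes from the whole gene and does not isolate the floxed exon. By quantitative PCR the study reported reduced Sirt1 RNA in total pancreas and in islets, and by western blot a smaller protein in total pancreas. Dim clusters were judged against 1105 olfactory receptor genes, best known from the nose: the mark, 4.66 on the log2 scale, is the level under which 95% of their means lay. Of the members, 15 had a mean above it, 8 of class I, 6 of class II and 1 of neither, and H2-Q10 was among them only through its Sirt1-deficient values. The means of single members ran from 2.46 for H2-M10.3 to 8.68 for H2-K1, but they depend on each cluster's probes and do not order the genes by abundance.

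The question asked of these genes was whether loss of Sirt1 in the pancreas changed either class. H2-Q10, a class I gene whose product is secreted and is best known from the liver and serum, was higher in the Sirt1-deficient pancreata. No other member passed limma's unadjusted p of 0.01, the threshold of the study's methods. Among all genes, 1.63% passed, 0.739% higher and 0.888% lower. The fold changes of both classes centred near 0, with a median log2 fold change of -0.0031 in class I and -0.016 in class II, beside -0.017 over all genes. The log2 fold change was positive for 10 and negative for 11 class I members, and positive for 4 and negative for 6 class II members. After Benjamini-Hochberg adjustment of limma's p-values over all genes, 0.0135% of all genes and none of the 34 members had an adjusted p under 0.05. At an unadjusted p under 0.05, which 6.66% of all genes reached, 4 members were counted, all of class I. In RNA from a whole organ, fewer cells of a type and less RNA per cell cannot be told apart.

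**Figure D1:**
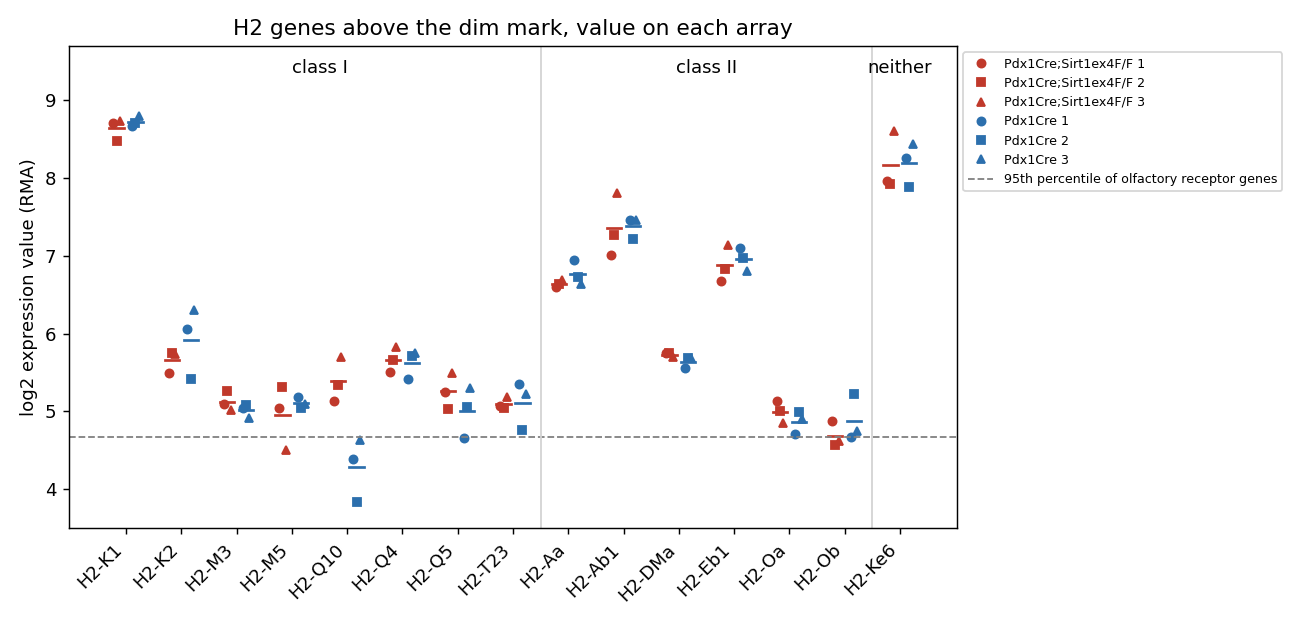
Log2 expression value (vertical axis, RMA) of the 15 H2 genes whose mean was above the dim mark, on each of the 6 arrays. Red symbols are Pdx1Cre;Sirt1ex4F/F pancreata and blue symbols Pdx1Cre pancreata, symbol shapes give the replicate number, short lines are group means and the dashed line is the dim mark at 4.66. H2-Q10 is the gene whose groups lie farthest apart, with all 3 Pdx1Cre values under the mark.

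H2-Q10 read 5.14, 5.34 and 5.70 in the Sirt1-deficient pancreata, against 4.38, 3.84 and 4.63 in the Pdx1Cre pancreata. The lowest Sirt1-deficient value stood above the highest Pdx1Cre value, and all 3 Pdx1Cre values lay under the dim mark. The means were 5.39 ± 0.28 in Sirt1-deficient pancreata and 4.29 ± 0.41 in Pdx1Cre pancreata (SD, n = 3 each). The fitted log2 fold change was 1.11 (standard error 0.21, 95% confidence interval 0.64 to 1.58), with an unadjusted p of 0.000444 and an adjusted p of 0.236 from limma. Because the Pdx1Cre arrays gave only a level under the mark, that fit is no measured fold. With the mark of 4.66 in place of the Pdx1Cre values, the Sirt1-deficient mean of this cluster stood 1.66-fold above the mark. That is a point value with no interval. H2-Q10 was gene number 41 of the 22180 by p-value. With 3 against 3 arrays, the exact 2-sided permutation test cannot go below p = 0.1, and H2-Q10 stood at that limit. Left-out arrays moved the log2 fold change between 0.88 and 1.28, and it passed each time.

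H2-Q10 had a second cluster, and it did not show the difference. That cluster, 17337142, read 4.31, 4.09 and 4.05 in the Sirt1-deficient pancreata, against 3.84, 4.43 and 4.31 in the Pdx1Cre pancreata. All 6 values lay under the dim mark and the groups overlapped, with a log2 fold change of -0.04 (95% confidence interval -0.40 to 0.32 in a limma fit over all clusters). Cluster 17337152 carried the difference, and the mean of both clusters gave a log2 fold change of 0.53, which passed (limma adjusted p = 0.401). Among all genes, 1082 had several clusters and 25 of these passed with the cluster kept. Another cluster passed in the same direction for 5 of the 25, and another cluster had the same sign for 21.

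The H2-Q genes are close copies of each other, and probes for one can bind RNA of another. Whether such binding takes part in the H2-Q10 value was not tested. The other clusters that name an H2-Q gene had these values. H2-Q4, a class I gene outside the classical set, read 5.50, 5.66 and 5.82 in the Sirt1-deficient pancreata, against 5.41, 5.71 and 5.75 in the Pdx1Cre pancreata, a log2 fold change of 0.04. Its second cluster was lower without overlap, at 4.51, 4.57 and 4.58 in Sirt1-deficient pancreata and 4.66, 4.67 and 4.74 in Pdx1Cre pancreata, with a log2 fold change of -0.14 that did not pass. The 2 clusters of H2-Q5, a pseudogene in the reference genome, differed in sign, with log2 fold changes of 0.25 and -0.10, and H2-Q1 stood at -0.11. None of these passed.

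**Figure D2:**
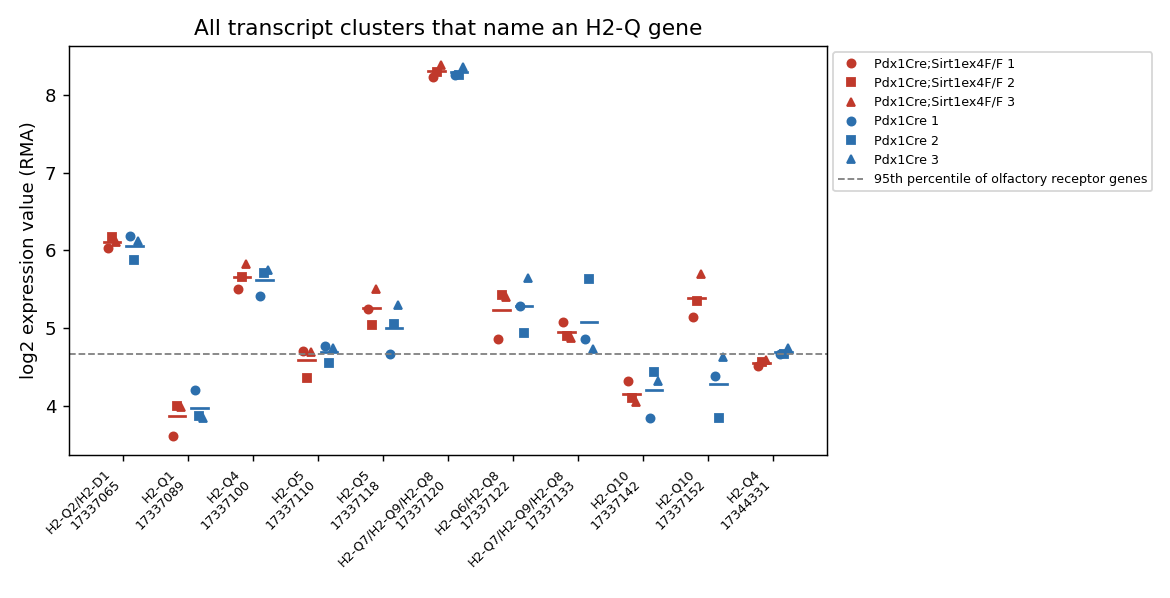
Log2 expression value (vertical axis, RMA) of every transcript cluster that names at least 1 H2-Q gene, with the cluster number under its symbols, on each of the 6 arrays. Red symbols are Pdx1Cre;Sirt1ex4F/F pancreata and blue symbols Pdx1Cre pancreata, short lines are group means and the dashed line is the dim mark at 4.66. Of the 2 H2-Q10 clusters, 17337152 has separate groups and 17337142 has overlapping ones.

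Further H2 genes share a cluster with a relative, and their values cannot be assigned to 1 gene. There were 7 such clusters, with log2 fold changes of -0.12 to 0.05 and a lowest limma p of 0.576. The cluster shared by H2-D1, a classical class I gene with no cluster of its own here, and H2-Q2 read 6.03, 6.18 and 6.11 in Sirt1-deficient pancreata and 6.18, 5.87 and 6.12 in Pdx1Cre pancreata. The brighter of the 2 clusters of H2-Q7, H2-Q8 and H2-Q9, genes near H2-Q10, read 8.23, 8.30 and 8.40 in Sirt1-deficient pancreata and 8.26, 8.27 and 8.36 in Pdx1Cre pancreata. The groups overlapped in both clusters. The cluster of H2-T22 and H2-T9, whose products are read by gamma-delta T cells, had a log2 fold change of 0.05.

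H2-K1, the other classical class I gene, did not pass. It read 8.71, 8.48 and 8.73 in Sirt1-deficient pancreata and 8.67, 8.71 and 8.80 in Pdx1Cre pancreata, a log2 fold change of -0.09 (95% confidence interval -0.34 to 0.17). H2-T23, which encodes Qa-1, the ligand of the NKG2A receptor of natural killer cells, had a log2 fold change of -0.01, and H2-M3, which presents N-formylated peptides of bacteria and mitochondria, one of 0.11. H2-M3 read 5.10, 5.26 and 5.02 in Sirt1-deficient pancreata and 5.05, 5.08 and 4.91 in Pdx1Cre pancreata, with overlap. Among clusters with 1 symbol, H2-M3, H2-T23 and H2-Q4 had the highest means of the H2-M, H2-T and H2-Q genes, while shared clusters of H2-Q7, H2-Q8 and H2-Q9 and of H2-T22 and H2-T9 had higher ones. The pseudogene H2-K2 stood at -0.26.

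The remaining class I members at an unadjusted p under 0.05 were all dim. H2-T10 had a log2 fold change of 0.35 (limma p = 0.0372, exact 2-sided permutation p = 0.1) and did not overlap between the groups. It read 3.35, 3.69 and 3.23 in Sirt1-deficient pancreata and 3.14, 2.91 and 3.19 in Pdx1Cre pancreata. H2-M10.3 stood at -0.34 (limma p = 0.0482) and H2-M10.6 at -0.40 (limma p = 0.0445), with an exact permutation p of 0.2 for each and overlapping groups. The H2-M10 genes are known from sensory neurons of the vomeronasal organ. All 6 of them measured here were under the dim mark, 3 with a positive and 3 with a negative fold change. H2-M10.3, the dimmest member of all, read 2.15, 2.63 and 2.09 in Sirt1-deficient pancreata and 2.64, 2.54 and 2.71 in Pdx1Cre pancreata.

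The class II chains H2-Aa, H2-Ab1 and H2-Eb1 stood above the dim mark on every array, and none passed. H2-Aa, the alpha chain of the A molecule, read 6.60, 6.63 and 6.69 in Sirt1-deficient pancreata and 6.95, 6.73 and 6.63 in Pdx1Cre pancreata, a log2 fold change of -0.13 (95% confidence interval -0.39 to 0.13). Its beta chain H2-Ab1 read 7.01, 7.27 and 7.80 in Sirt1-deficient pancreata and 7.46, 7.22 and 7.47 in Pdx1Cre pancreata, a log2 fold change of -0.02 (-0.44 to 0.40). H2-Eb1, the beta chain of the E molecule, read 6.68, 6.84 and 7.14 in Sirt1-deficient pancreata and 7.10, 6.98 and 6.80 in Pdx1Cre pancreata, a log2 fold change of -0.08 (-0.39 to 0.24). In all 3 chains the groups overlapped, and the highest Sirt1-deficient value came from array 3. H2-Ea, the alpha chain of the E molecule, is not expressed in haplotypes b and q. It read 4.10, 4.05 and 4.02 in Sirt1-deficient pancreata and 3.94, 3.90 and 4.09 in Pdx1Cre pancreata, under the dim mark on every array. H2-Eb2, a further beta chain gene, was also dim, with a log2 fold change of 0.0050.

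No gene of the class II peptide editors passed. H2-DMa, the alpha chain of the DM molecule that exchanges peptides, read 5.75, 5.74 and 5.70 in Sirt1-deficient pancreata and 5.55, 5.68 and 5.69 in Pdx1Cre pancreata. These values do not overlap, but the gap between the groups was small and the log2 fold change was 0.09 (limma p = 0.400, exact 2-sided permutation p = 0.1). The DM beta chains H2-DMb1 and H2-DMb2 were dim, at -0.11 and -0.01. H2-Oa and H2-Ob, the chains of the DM inhibitor, stood at 0.12 and -0.19 with overlapping groups. The 3 members in neither class did not pass either. H2-Ke6 encodes a hydroxysteroid dehydrogenase and only shares the prefix, and it stood at -0.03. The pseudogenes H2-Pb and H2-Bl, counted here by their symbols alone, stood at 0.03 and -0.08.

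**Figure D3:**
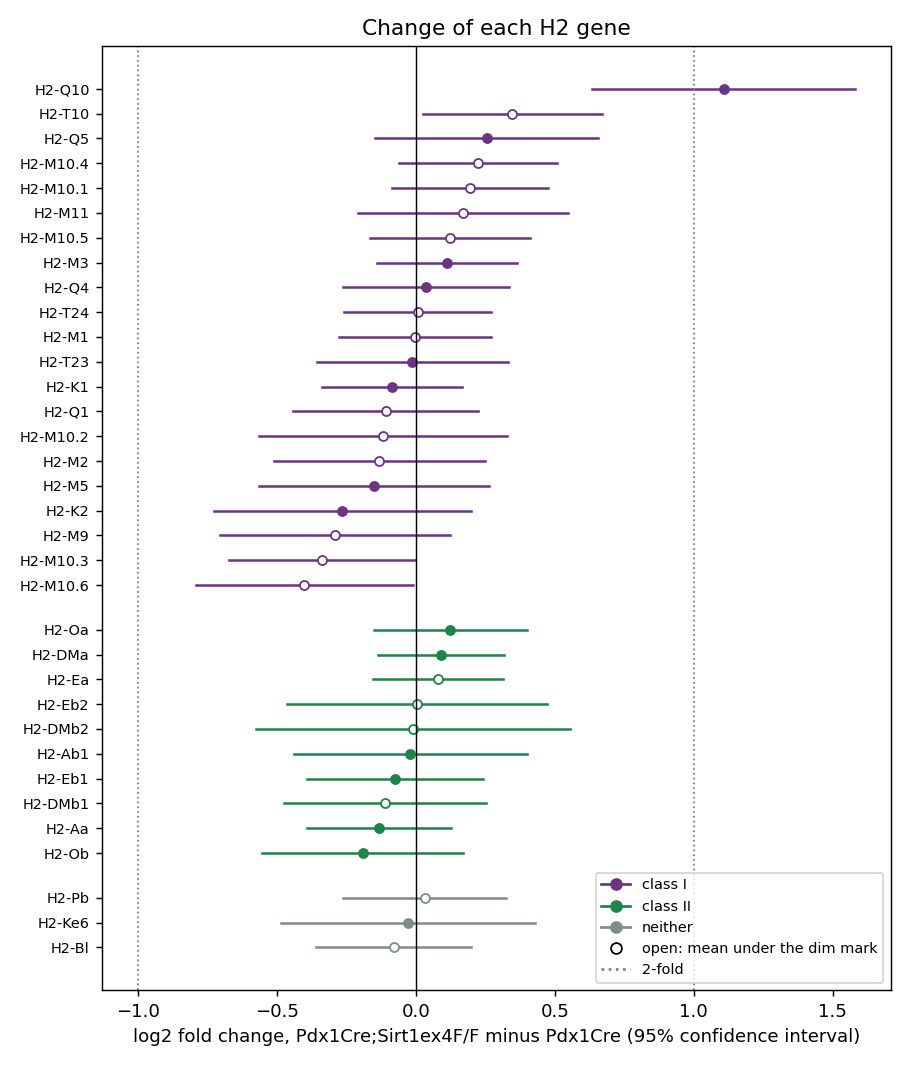
Log2 fold change (horizontal axis, Pdx1Cre;Sirt1ex4F/F minus Pdx1Cre) of each of the 34 H2 genes with its 95% confidence interval from limma, class I in purple, class II in green and neither class in grey. Open circles are genes whose mean was under the dim mark and dotted lines mark 2-fold in either direction. H2-Q10 at 1.11 is the only gene whose interval reaches past a dotted line.

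Counted over all members, the genotypes had separate value ranges for 3 of 34 genes (8.82%), H2-Q10, H2-T10 and H2-DMa, beside 11.7% of all genes. The 95% confidence interval lay within 2-fold in either direction for 33 of the 34 members, all but H2-Q10, and within 1.5-fold for 14 of the 21 class I and 10 of the 10 class II members. For the 15 members above the dim mark, these counts were 14 within 2-fold and 12 within 1.5-fold, and for the others, at background signal, an interval does not bound a change in RNA. Over all genes these shares were 98.9% within 2-fold and 87.0% within 1.5-fold. A p above the threshold does not show that the other members were equal between genotypes.

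Set against each other array by array, the classes moved little. After centring each gene on its own mean, class I averaged -0.081, 0.073 and 0.055 on the Sirt1-deficient arrays, against -0.016, -0.026 and -0.0055 on the Pdx1Cre arrays. Class II averaged -0.066, -0.031 and 0.060 on the Sirt1-deficient arrays, against -0.083, 0.10 and 0.018 on the Pdx1Cre arrays. The groups overlapped in both classes. The 8 class I members above the dim mark spread wider, with H2-Q10 among them only through its Sirt1-deficient values. They averaged -0.00046, 0.075 and 0.11 on the Sirt1-deficient arrays, against -0.066, -0.21 and 0.090 on the Pdx1Cre arrays, with overlap. The chains H2-Aa, H2-Ab1 and H2-Eb1 alone spread wider, at -0.24, -0.087 and 0.21 on the Sirt1-deficient arrays and 0.17, -0.025 and -0.032 on the Pdx1Cre arrays. Within the Sirt1-deficient group, the macrophage list, with 17 of 18 genes measured, ran the same way at -0.21, -0.12 and 0.21, beside 0.038, 0.10 and -0.016 on the Pdx1Cre arrays. The B cell and plasma cell list, 16 of 19 measured, stood at -0.039, -0.046 and 0.23 on the Sirt1-deficient arrays and -0.14, -0.017 and 0.012 on the Pdx1Cre arrays. Jchain, a gene of that list that joins secreted antibodies, read 5.86 on Sirt1-deficient array 3, which raises the list mean there. It read 3.13 and 2.90 on the other Sirt1-deficient arrays and 3.15, 3.08 and 3.73 on the Pdx1Cre arrays. Cxcl13, a chemokine of lymphoid tissue, read 6.84 on Sirt1-deficient array 3. Its other values were 5.42 and 5.64 on the Sirt1-deficient arrays and 5.38, 5.48 and 5.25 on the Pdx1Cre arrays. Both genes were named after their values were seen. The lymph node stroma list, 7 of 10 measured, holds Cxcl13, and this single gene raises the list mean on Sirt1-deficient array 3. The list stood at -0.15, 0.0013 and 0.15 on the Sirt1-deficient arrays. On the Pdx1Cre arrays it stood at -0.010, 0.023 and -0.021. The dendritic cell list, 15 of 16 measured, went the other way at -0.018, 0.088 and -0.070 on the Sirt1-deficient arrays, against -0.0019, 0.013 and -0.011 on the Pdx1Cre arrays, and the T cell list, 12 of 18 measured, stood at -0.10, 0.052 and 0.027, against -0.086, 0.14 and -0.025 on the Pdx1Cre arrays. The part of such cells in the class II values was not tested. Without Sirt1-deficient array 3 the class II median was -0.13, and H2-Q10 still passed at 0.95 (limma adjusted p = 0.420).

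**Figure D4:**
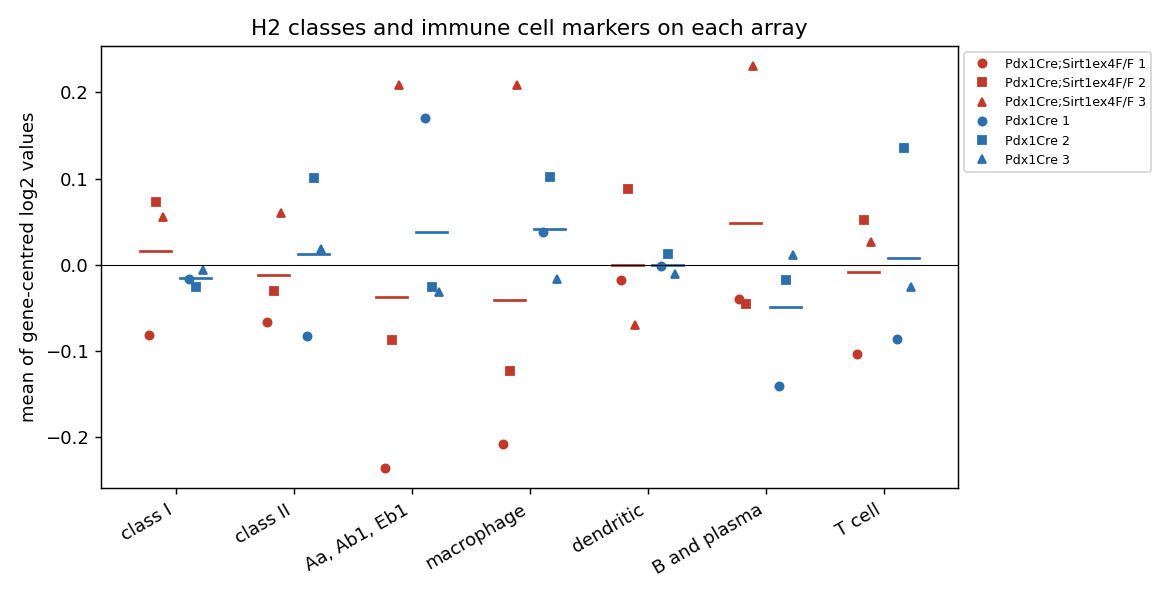
Mean of gene-centred log2 values (vertical axis) of the H2 classes, of the class II chains H2-Aa, H2-Ab1 and H2-Eb1, and of 4 marker lists of immune cells, on each array. Red symbols are Pdx1Cre;Sirt1ex4F/F pancreata and blue symbols Pdx1Cre pancreata, and short lines are group means. Sirt1-deficient array 3, the red triangle, is the highest of the 6 for the class II chains at 0.21, the macrophage list at 0.21 and the B cell and plasma cell list at 0.23. The single gene Jchain raises the B cell and plasma cell value on that array.

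The partners of class I were measured in 20 of 21 cases. None was higher and 2 were lower (0 and 4 at an unadjusted limma p under 0.05), the chaperone Calr and the disulfide isomerase Pdia3, which belong to the complex that loads peptide on class I but also fold many other proteins in the endoplasmic reticulum. Calr read 10.53, 10.41 and 10.69 in Sirt1-deficient pancreata and 11.19, 10.89 and 11.15 in Pdx1Cre pancreata, a log2 fold change of -0.53 (limma p = 0.00192, adjusted p = 0.391, exact 2-sided permutation p = 0.1). Pdia3 stood at -0.49 (limma p = 0.00287, adjusted p = 0.436, exact permutation p = 0.1). Each call was lost when some single arrays were left out. Without Sirt1-deficient array 2 the limma p of Calr was 0.0102, and without Pdx1Cre array 1 or 3 or Sirt1-deficient array 1 or 2 that of Pdia3 was 0.0118 to 0.0138. The median of the list was -0.079, and 6 of its 20 genes (30%) did not overlap between groups, beside 11.7% of all genes, of which 0.888% passed as lower. These were Calr, Pdia3, Tap2, Psmb10, Psme1 and Psme2, the last 3 named after their values were seen, all lower in the Sirt1-deficient pancreata.

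The parts specific to class I showed small differences that did not pass. B2m, the light chain of class I, read 10.51, 10.57 and 10.74 in Sirt1-deficient pancreata and 10.61, 10.53 and 10.59 in Pdx1Cre pancreata, a log2 fold change of 0.03. The peptide transporter genes Tap1 and Tap2 stood at -0.01 and -0.11, and tapasin (Tapbp), which holds the transporter to class I, at 0.07. A further cluster, shared by Tapbp and Zbtb22, differed by 0.27 on the log2 scale with overlapping groups (exact 2-sided permutation p = 0.2). The immunoproteasome subunits Psmb8 and Psmb9 stood at -0.21 and 0.05, and Nlrc5, the transcriptional activator of class I genes, at -0.20. Psmb9 and Nlrc5 had means under the dim mark. On the class II side, 17 of 20 partner genes were measured and none passed, nor had any an unadjusted limma p under 0.05, and the median was -0.021. Ciita, the master activator of class II transcription, stood at -0.12, and Rfx5, which binds class II promoters, at 0.09. Cd74, the invariant chain that fills the class II groove until loading, shared its cluster with Mir5107, and the cluster read 7.34, 7.54 and 7.48 in Sirt1-deficient pancreata and 7.59, 7.54 and 7.43 in Pdx1Cre pancreata (exact 2-sided permutation p = 0.6). Of the genes of interferon gamma signalling, 23 of 27 were measured and none passed, with 1 higher and 1 lower at an unadjusted limma p under 0.05 and a median of -0.035. Of these 23 genes, 11 had a mean above the dim mark.

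The promoter windows show what H2-Q10 shares with H2-K1 and what it lacks. They are the 250 bases before the gene start from RefSeq on GRCm38.p6, read in the direction of the gene, and 25 of the 34 members had such a window, 16 of class I and 8 of class II. H2-K1 stands at chr17:34000348-34000597 on the minus strand, H2-Q10 at chr17:35469839-35470088 on the plus strand, and H2-Aa, given as a class II gene for contrast, at chr17:34287824-34288073 on the minus strand. Capitals mark matches on either strand to GGGATTCCC, the kappaB site of the class I enhancer A, GTTTCACTT, a core of the interferon response element, TGACG, a core of the cyclic AMP response element, and ATTGG, the inverted CCAAT box. In H2-Aa the match to TGACG and the match to its reverse complement overlap.
H2-Q10: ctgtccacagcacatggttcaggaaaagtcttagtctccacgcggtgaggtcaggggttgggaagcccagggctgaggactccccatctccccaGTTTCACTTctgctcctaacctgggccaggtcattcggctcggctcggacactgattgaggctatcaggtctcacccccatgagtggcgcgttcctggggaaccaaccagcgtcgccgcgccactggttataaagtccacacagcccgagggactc
H2-K1: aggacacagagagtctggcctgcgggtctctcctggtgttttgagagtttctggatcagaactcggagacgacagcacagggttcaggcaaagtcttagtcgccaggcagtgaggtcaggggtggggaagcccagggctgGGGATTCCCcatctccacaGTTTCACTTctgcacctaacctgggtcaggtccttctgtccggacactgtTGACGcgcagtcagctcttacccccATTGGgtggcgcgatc
H2-Aa: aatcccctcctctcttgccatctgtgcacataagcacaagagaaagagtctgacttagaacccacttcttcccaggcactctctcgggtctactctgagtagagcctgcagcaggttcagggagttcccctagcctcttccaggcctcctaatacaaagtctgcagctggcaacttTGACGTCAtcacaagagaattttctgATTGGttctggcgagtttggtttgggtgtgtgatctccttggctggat

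H2-K1 held all 4 motifs and H2-Q10 held GTTTCACTT alone. Local alignment of the windows of H2-K1 and H2-Q10, with 50 further bases past the start, gave 86.7% identity over 225 bases. GGGATTCCC occurs in 0.301% of all 32851 RefSeq promoter windows of the mouse and was found in 1 of the 25 members, H2-K1. It was also found in H2-D1, H2-Q6 and H2-Q7, which have no cluster of their own. GTTTCACTT occurs in 0.338% of all windows and was found in 4 members, H2-K1, H2-M3, H2-Q4 and H2-Q10. Of the genes without a cluster of their own, H2-D1, H2-Q6, H2-Q7, H2-T22 and H2-T3 also held it. None of the shared clusters passed. TGACG, in 17.8% of all windows, was found in 8 of 16 class I and 1 of 8 class II members, and ATTGG, in 33.8% of all windows, in 14 of 16 and 7 of 8. Of the 4 members with GTTTCACTT, 1 passed, at 1.11 for H2-Q10, beside 0.11 for H2-M3, 0.04 for H2-Q4 and -0.09 for H2-K1. A match to a motif is a description of the letters and no measured binding site.

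Genes of other functions lie between the H2 genes. Whether they share 1 haplotype with the H2 genes in each mouse is not known from the sources used here. Between H2-K2 and H2-M2 in the order of the reference, 178 genes were measured and 144 of these had no H2 symbol. A mean above the dim mark was found for 94 of the 144, and for the others not passing does not bound a change in RNA. None of the 144 was higher and 2 were lower (1 and 6 at an unadjusted limma p under 0.05), the median log2 fold change was -0.034 and 14 (9.72%) did not overlap between groups, beside 11.7% without overlap and 1.63% passing over all genes. Tubb5, a beta tubulin, read 8.86, 8.74 and 8.60 in Sirt1-deficient pancreata and 9.34, 9.02 and 9.15 in Pdx1Cre pancreata, a log2 fold change of -0.43 (limma p = 0.00649, exact permutation p = 0.1). Nrm, a protein of the nuclear envelope, read 5.03, 5.12 and 5.10 in Sirt1-deficient pancreata and 5.35, 5.62 and 5.45 in Pdx1Cre pancreata, a log2 fold change of -0.39 (limma p = 0.00604, exact permutation p = 0.1). The groups did not overlap for either gene, but their adjusted p was 0.567 and 0.566. Both missed the threshold when single arrays were left out. Tubb5 stood at -0.44 to -0.35 (limma p of 0.0161 to 0.0288) without Pdx1Cre array 1 or 3 or Sirt1-deficient array 2 or 3, and Nrm at -0.41 to -0.32 (limma p of 0.0144 to 0.0247) without any one array other than Pdx1Cre array 1. With the mean of all its clusters, Tubb5 stood at -0.20 and did not pass (limma p of 0.124). Hspa1b, a heat shock gene named after its values were seen, had the lowest fold change of the interval at -0.95, with overlapping groups (limma p = 0.0267, exact permutation p = 0.2). Next to H2-Q10, H2-Q5 stood at 0.25 and Pou5f1 at -0.06.

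**Figure D5:**
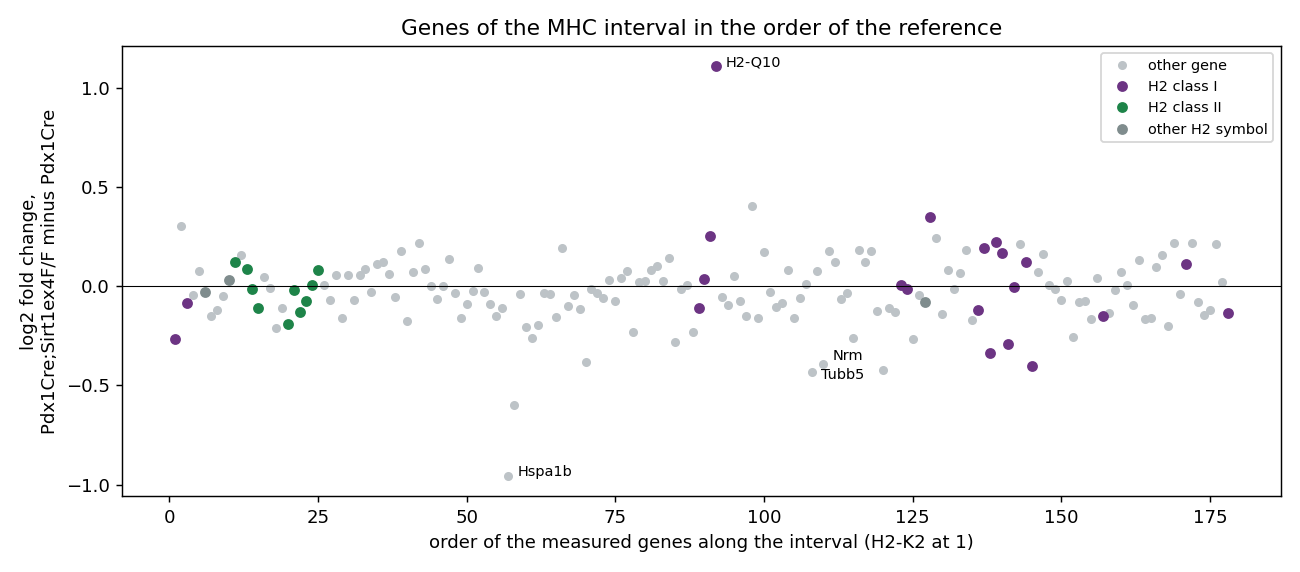
Log2 fold change (vertical axis, Pdx1Cre;Sirt1ex4F/F minus Pdx1Cre) of the 178 genes measured between H2-K2 and H2-M2, placed on the horizontal axis by their order in the reference. Class I genes are purple, class II genes green, other H2 symbols dark grey and other genes light grey. H2-Q10 at 1.11 stands alone above its neighbours, and Hspa1b at -0.95 is the lowest.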

How the data were processed

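RNA from 3 Pdx1Cre;Sirt1ex4F/F and 3 Pdx1Cre pancreata was hybridized to GeneChip Mouse Gene ST arrays. The deposited table holds log2 expression values, which the authors made with oligo and RMA (Robust Multi-array Average, comprising background correction, quantile normalization and a summary per transcript cluster). Neither tool versions nor a genome build for the table were found in the sources. Single probe intensities were not used, so probes that match several H2 genes could not be separated. The number of arrays limits the precision.

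The platform annotation gave 1 symbol to 23521 of the 41345 clusters, several to 1820 and none to 16004. Genes were named from clusters with 1 symbol, and each of the 22180 genes was read from its cluster with the highest mean. NCBI RefSeq (GRCm38.p6) gave names, gene types, gene order and promoters; 33 of 34 members matched by gene ID. Groups were compared with limma 3.58.1 in R 4.3.3 (lmFit and eBayes, Pdx1Cre;Sirt1ex4F/F minus Pdx1Cre, no covariates) on the deposited log2 values, with Benjamini-Hochberg adjustment over all genes. The call of a gene as higher or lower needs limma's unadjusted p to be under 0.01, and such a gene is said to pass. No source says that the mice came from separate litters, so p-values measure the spread between these pancreata. The model was tested on simulated data.

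The members and all lists were chosen with earlier results of these data known. Genes were named by rule: each member that passed, H2-K1, H2-D1, all class II members, those of neither class, the brightest H2-Q, H2-T and H2-M gene, the dimmest and brightest member, set partner genes, and genes of the partner lists, cell type lists or MHC interval that passed. Others were named after their values were seen. Alternatives were array weights, a replicate block, robust moderation with an intensity trend, 2 filters against dim genes, centred arrays, repeated quantile normalization, the first principal component, each array left out, other choices of cluster, protein-coding genes alone, clusters of several H2 symbols admitted, regions of variable gene number left out and other thresholds.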

Additional observations from a re-analysis of the deposited data

How the results depend on the processing

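H2-Q10 kept an unadjusted limma p under 0.01 in each fit that held it, with a log2 fold change of 0.53 (mean of its clusters) to 1.28, while its adjusted limma p, where tabulated, was 0.0592 to 0.494. The filter at the olfactory mark kept it only through its Sirt1-deficient values. The filter that kept genes above the median of all genes removed it, and then 0 H2 genes passed, as after leaving out the H2-D, H2-L, H2-Q and H2-T genes (0) and at a Benjamini-Hochberg adjusted p under 0.05 (0); 4 passed at an unadjusted p under 0.05. With single arrays left out, 1 to 2 H2 genes passed. The further gene was H2-K2 without Pdx1Cre replicate 2 and H2-M10.3 without Sirt1-deficient replicate 2 (-0.51, limma adjusted p = 0.551). The class I median was -0.015 to 0.080 with single arrays left out and -0.10 without the H2-D, H2-L, H2-Q and H2-T genes. The class II median was -0.13 to 0.041 with single arrays left out and -0.079 with array weights. Genes of the MHC interval that passed numbered 0 to 3 with single arrays left out and 1 with the mean of all clusters of a gene, where Tubb5 stood at -0.20. Partner genes that passed numbered 0 to 3 with single arrays left out. Of 411 further values of 27 named genes that had not passed, 37 had the other sign and 1 passed. Over all genes, 164 were higher and 197 lower. These counts were 252 and 289 with the first principal component, 203 and 332 with array weights, and 125 and 123 without Sirt1-deficient replicate 1. The median of all genes was -0.028 with each array centred, beside -0.017.

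Deviations of arrays with the same replicate number correlated at -0.11, 0.16 and 0.16, beside -0.26 to 0.13 for arrays with different numbers. These values do not settle whether the replicate numbers pair the samples. With the replicate block 1 H2 gene passed, H2-Q10 at 1.11 (limma adjusted p = 0.203). The alternative that leaves out members of similar protein sequence, and the protein identities themselves, were not run. Of the 21 class I members, 13 lay under the dim mark, where differences are least certain, and the Pdx1Cre level of H2-Q10 lies there too.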

Other observations

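Other genes that belong with the H2 system and the cells that carry it were also measured. Of genes with a class I fold outside the H2 symbols, 12 of 18 were measured, and of receptors that read H2 molecules, 16 of 23, and none of either list passed, with 2 and 1 genes lower at an unadjusted limma p under 0.05. Nor did any gene of the T cell (12 of 18 measured), B cell and plasma cell (16 of 19), dendritic cell (15 of 16), macrophage (17 of 18), natural killer cell (10 of 10) or lymph node stroma (7 of 10) lists. Many of these genes were dim: 5 with a class I fold and 2 receptors had a mean above the dim mark. In the 6 cell lists, in the order given, 4, 7, 7, 11, 4 and 6 genes did. For genes under the mark, at background signal, not passing does not bound a change in RNA. At an unadjusted limma p under 0.05, the B cell and dendritic cell lists had 1 gene higher each, the macrophage and lymph node stroma lists 1 lower each, and the T cell and natural killer cell lists none. In the macrophage list, 5 genes had a positive and 12 a negative log2 fold change, from -0.31 to 0.28. The groups did not overlap for 3 of the 17 (17.6%), beside 11.7% of all genes. Cd68, a lysosomal protein of macrophages, had lower values on all Sirt1-deficient arrays, with a log2 fold change of -0.15 (exact permutation p = 0.1), and did not pass. Adgre1, which encodes F4/80, stood at -0.15 with overlap.

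Among markers of the other pancreatic cell types, 3 genes passed, where 1.63% of all genes did. In the endothelial list, 12 genes were measured, 8 positive and 4 negative, 1 passed as higher, and 3 were higher at an unadjusted limma p under 0.05. Emcn, a surface protein of capillary and venous endothelium, read 7.13, 7.30 and 6.99 in Sirt1-deficient pancreata and 6.73, 6.51 and 6.87 in Pdx1Cre pancreata, a log2 fold change of 0.44 (limma p = 0.00847, exact permutation p = 0.1). In the islet list, 2 of 11 genes passed, both lower, the PP cell hormone Ppy at -0.83 and the transcription factor Isl1 at -0.51 (limma adjusted p = 0.250 and 0.566). None of the 12 acinar or 8 duct genes measured passed, with 1 higher in each list at an unadjusted limma p under 0.05. The liver and plasma protein list, given because H2-Q10 is best known from the liver, had 10 genes measured, none passing and none with an unadjusted limma p under 0.05, with 2 positive and 8 negative log2 fold changes and a median of -0.10. Of these 10 genes, 5 had a mean above the dim mark.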
